A study of Homo sapiens with 12 samples.

Results

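The clustered histone genes are the H1, H2A, H2B, H3 and H4 genes of the clusters HIST1 to HIST4, most of them replication-linked and a few of them testis histone genes. They were taken as all protein-coding rows of the PC-3M table whose gene symbol begins with HIST and a cluster number from 1 to 4 followed by H, with 1 transcript per symbol, the transcript with the highest mean over the 6 libraries. The rule gave 70 of the 24359 symbols in the table, from 4 clusters and 5 histone types: 6 H1, 17 H2A, 18 H2B, 14 H3 and 15 H4 genes. Of these, 55 lie in HIST1 on chromosome 6, 11 in HIST2 and 3 in HIST3 on chromosome 1, and 1 in HIST4 on chromosome 12. Positions are those of the deposited tables, on hg19. The 70 symbols stand for 67 distinct loci, because HIST2H2AA3 and HIST2H2AA4, HIST2H3A and HIST2H3C, and HIST2H4A and HIST2H4B were listed at the same coordinates with the same reads.

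Histones are the proteins around which DNA is wound: H2A, H2B, H3 and H4 form the nucleosome core, and H1 binds the linker DNA. The clustered genes are for the most part transcribed in S phase, under the coactivator NPAT, and new histones are thereby made as DNA is copied. Most of their messenger RNAs have no introns and end in a stem-loop bound by SLBP in place of a poly(A) tail, although some of the genes also give polyadenylated transcripts. Because many of the genes encode the same or nearly the same protein, their coding sequences are alike, and reads can be split between paralogs in ways that cannot be told apart here.

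RNA was sequenced from 2 human cell lines, PC-3M prostate cancer cells, which were derived from PC-3 for their metastatic growth, and the breast epithelial line MCF10A, which is not transformed. In each line 3 libraries had received siRNA against KMT9a and 3 a control siRNA. KMT9a, encoded by N6AMT1, is the catalytic subunit of a methyltransferase that the series title names as the writer of a methyl mark on histone H4. The title names control of the metabolism and growth of prostate cancer cells as the subject, and the comparison made here asks how the clustered histone transcripts differ between the siRNA groups.

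PC-3M cells were at passage 11 and MCF10A cells at passage 13 in both siRNA groups, and neither the siRNA sequences nor the time after transfection are given in the sources used here. The replicates are labelled biological, without naming separate cultures, and the p-values therefore reflect only how far these libraries spread, which may be technical. In genes there were 40236221 to 53401602 read ends per PC-3M library, with 2 ends per read pair, and 181064 to 255642 per MCF10A library. N6AMT1 averaged 2.81 ± 0.213 CPM (read ends per 1000000, scaled by TMM) in KMT9a siRNA libraries and 11.5 ± 0.529 CPM in control siRNA libraries of PC-3M (SD, n = 3 each), a log2 fold change of -2.02 (limma, adjusted p = 3.47e-09). In MCF10A it had 0 read ends in all 6 libraries, so the knockdown could not be checked there. The epithelial keratins KRT8 and KRT18 were abundant in PC-3M, and KLK3 was at 0 CPM in KMT9a siRNA libraries and at 0.0477 CPM in control siRNA libraries. Among the PC-3M libraries, KMT9a siRNA replicate 2 stood apart. Its read counts differed from those of the other KMT9a siRNA libraries by a chi-square per degree of freedom of 9.14 and 11, against 2.09 between those libraries and 1.46 to 2.06 between control siRNA libraries.

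Detection was counted by histone type. In PC-3M, 65 of the 70 genes had a read in at least 1 library and 40 had enough reads to be tested, 57.1% of the genes. Over all symbols, 14958 of 24359 were tested. The tested share was highest for H2B, with 14 of 18 genes, and lowest for H3, with 5 of 14; H2A had 11 of 17, H1 4 of 6 and H4 6 of 15. The 5 genes with no read in any library were HIST1H2AA and HIST1H2BA, which encode testis histones, HIST1H3I, HIST1H4F and HIST1H4L. With 3 read pairs as the limit that a count of 0 allows, their level could have been up to 0.112 to 0.149 CPM of the read ends in genes, depending on the library. This limit covers counting error alone, because copies of 1 molecule could not be told apart.

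Another 25 genes had reads but too few for a test, and none of them exceeded 13 read ends in a library. Next to the read filter stood HIST1H4J, outside it with a mean of 6.33 read ends, and HIST1H3B, inside it with a mean of 10. HIST1H3B had 4, 0 and 7 read ends with KMT9a siRNA and 22, 13 and 14 with control siRNA. It thus reached the minimum count of 10 through the control siRNA libraries alone, the group in which it is higher. Within the untested set, HIST1H2BM had no read end in the 3 KMT9a siRNA libraries, against 6, 2 and 4 in control siRNA libraries, 12 in all. A count of 0 allows 6 read ends in a single library, a limit that does not compare the groups. Without the read filter HIST1H2BM and HIST1H4B were called lower as well, on few reads. HIST1H1B, a linker histone gene, had 0, 0 and 0 read ends with KMT9a siRNA, against 2, 6 and 0 with control siRNA. Summed over their 28 loci, the untested genes reached 1.11 ± 0.0801 CPM in KMT9a siRNA libraries and 1.28 ± 0.163 CPM in control siRNA libraries (SD, n = 3 each). The kind of RNA selection used for the libraries is not given in the sources used here, and its part in which histone genes were detected was not tested.

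A few genes held most of the reads. HIST2H2BE took 34.6% of the read ends assigned to the clustered histone genes over the 6 libraries and HIST1H2BK 26.0%, and the 8 genes with the most reads took 89.6%. Per kilobase of transcript the order was HIST1H2BK at 186 CPM per kilobase, HIST2H2BE at 91.0, HIST1H2AC at 83.3, HIST3H2A at 64.0 and HIST1H2BD at 52.3, followed by HIST1H4H at 35.9, HIST1H2BC at 35.1 and HIST1H1C at 35.0. H2B and H2A genes thus filled the places at the top, and the highest H3 gene, HIST1H3H, stood at 12.0 CPM per kilobase. For 66 of the 70 genes the transcript was a single uninterrupted block. The 4 spliced ones were HIST1H2BD, HIST1H2BK, HIST1H3D and HIST2H2BF. HIST2H2BE had the longest transcript, 2222 bases, while the others were at most 996 bases.

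**Figure D1:**
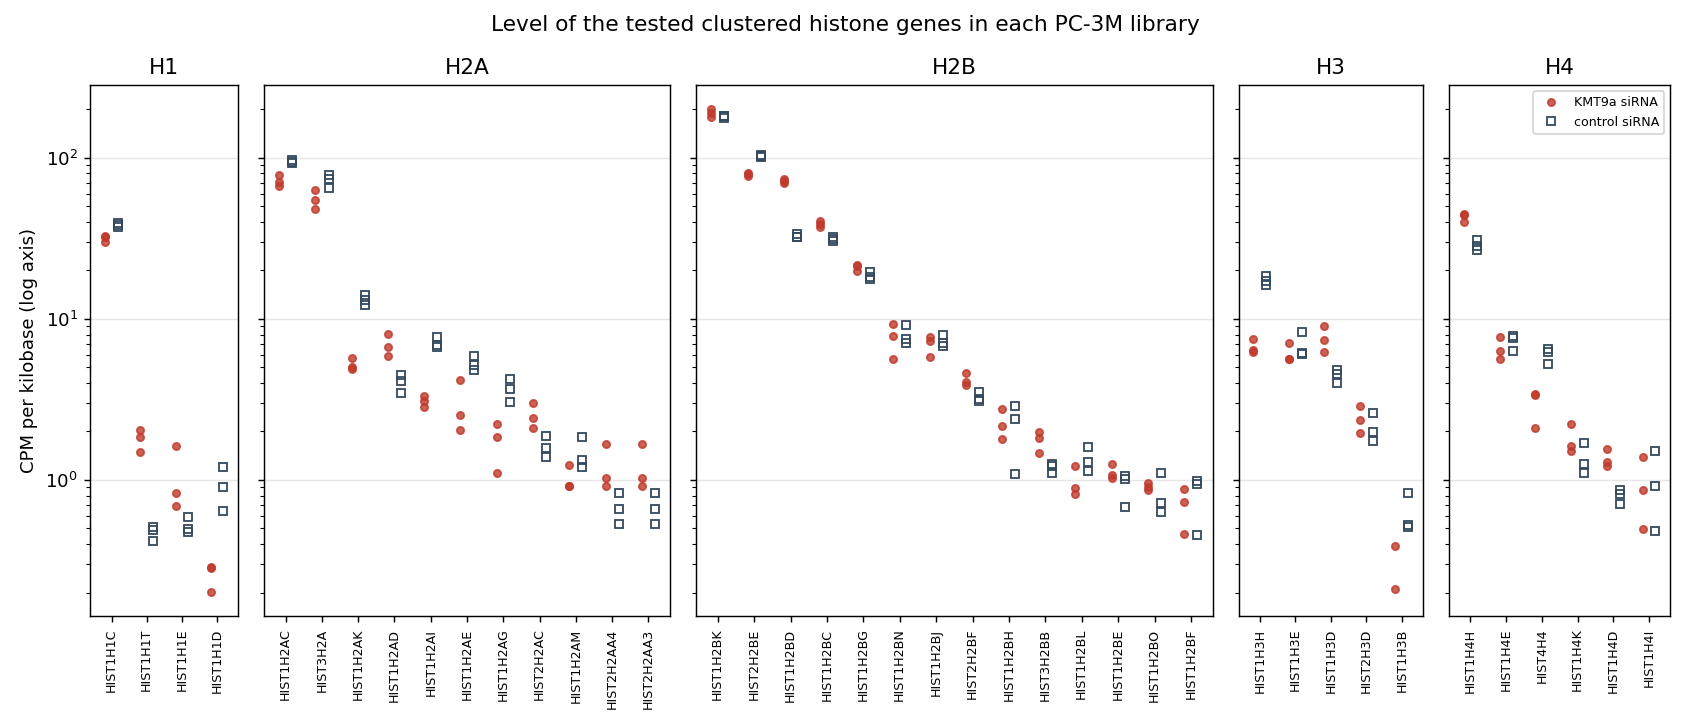
Level of each tested clustered histone gene in PC-3M, in CPM per kilobase of transcript on a log axis, with 1 panel per histone type; circles are the 3 KMT9a siRNA libraries and squares the 3 control siRNA libraries. HIST1H2BD, HIST1H4H and HIST1H1T lie higher with KMT9a siRNA and HIST1H3H, HIST1H2AK and HIST2H2BE lower, while HIST1H2BK overlaps; HIST1H3B was at 0 in KMT9a siRNA replicate 2, which a log axis cannot show.

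The clustered histone genes of PC-3M differed in both directions between KMT9a siRNA and control siRNA. Of the 40 tested genes, 11 were higher (27.5%), 12 were lower (30%) and 17 did not pass an adjusted p of 0.05 (limma on log2 values, adjusted over the 14958 tested genes). Over all tested genes, 37.2% were called higher and 37.3% lower, 74.5% in either direction, beside 57.5% of the clustered histone genes. Their median log2 fold change was 0.02, against 0.000994 over all tested genes. The KMT9a siRNA and control siRNA libraries did not overlap for 14 genes that were higher (35%) and 12 that were lower (30%), where the background is 38.6% higher and 38.4% lower. At least a 2-fold difference was fitted for 9 of the called genes, but such differences were not counted over all tested genes. HIST1H1D and HIST1H3B, among the 9, reached the minimum count in every library of the control siRNA group only. Scaling by library totals alone in place of TMM moved the median of all tested genes to -0.169 on the log2 scale, and 5 histone genes were then called higher and 13 lower. Leaving out KMT9a siRNA replicate 2 gave 9 higher and 11 lower, and leaving out control siRNA replicate 3 gave 7 higher and 12 lower. The authors' deposited table had 9 of the tested histone genes higher and 12 lower at its own adjusted p of 0.05, and 21 were called in both with the same sign.

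**Figure D2:**
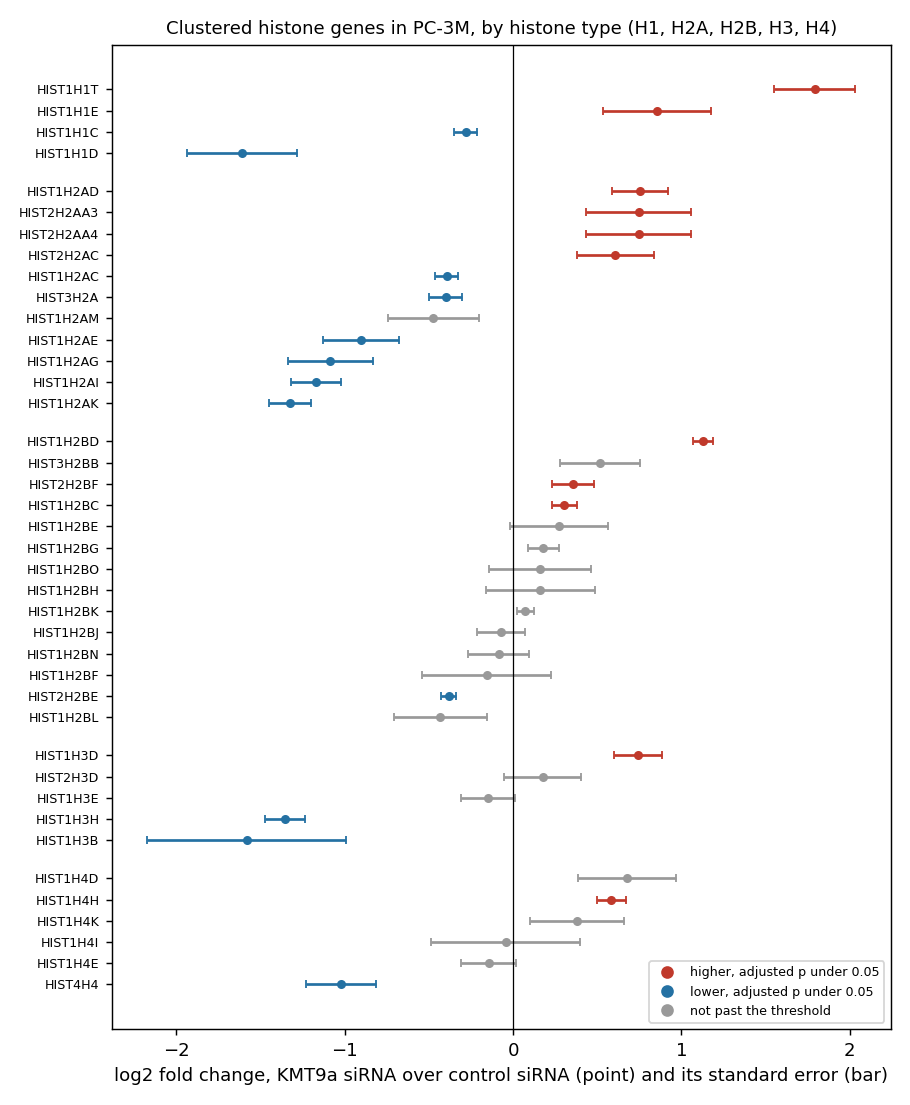
Log2 fold change of the 40 tested clustered histone genes in PC-3M, KMT9a siRNA over control siRNA, grouped by histone type from H1 at the top to H4 at the bottom; points are fitted values and bars their standard errors, coloured by direction where the adjusted p was under 0.05. All 4 H1 genes and 10 of 11 H2A genes passed, split over both directions, whereas 10 of 14 H2B genes did not.

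Calls by type are given beside the 74.5% of all tested genes that were called. Of 11 tested H2A genes, 6 were lower and 4 higher with KMT9a siRNA, with a median log2 fold change of -0.40. Of 14 tested H2B genes, 3 were higher, 1 was lower and 10 did not pass, with a median of 0.16. The H2A genes and H2B genes lie largely in head-to-head pairs that share the DNA between them as a promoter, so the partners could be set against each other within each library. In the PC-3M table, 12 pairs of an H2A and an H2B gene on opposite strands had starts within 1000 bases, and both genes were tested in 9 of them.

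Within these 9 pairs the ratio of the partners separated the siRNA groups. The log2 ratio of H2A to H2B was lower in all KMT9a siRNA libraries than in any control siRNA library for 7 pairs and higher for 2. Each of the 9 exact two-sided permutation tests gave p = 0.1, the smallest that 3 against 3 libraries allow, and 0.1 after Benjamini-Hochberg adjustment, so none can reach 0.05. Among all 938 head-to-head gene pairs within 1000 bases with both genes tested, the ratio separated the groups in 734, or 78.3%, so separation by itself was frequent. Because the ratio is taken within a library, scaling cancels from it, apart from the small value added to avoid a ratio to 0.

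The pair with the most reads for both partners was HIST1H2AC and HIST1H2BC, whose starts lie 241 bases apart. HIST1H2AC, an H2A gene at chr6:26124373-26124918 on the plus strand, had 36.4, 42.8 and 38.6 CPM in KMT9a siRNA libraries, against 51.0, 50.4 and 53.2 CPM in control siRNA libraries. Its log2 fold change was -0.40 ± 0.07 (SE; adjusted p = 0.00019 by limma). HIST1H2BC, an H2B gene at chr6:26123695-26124132 on the minus strand, had 16.3, 17.6 and 16.9 CPM with KMT9a siRNA, against 14.1, 13.4 and 13.6 CPM with control siRNA, a log2 fold change of 0.30 ± 0.07 (SE; adjusted p = 0.00263 by limma). The KMT9a siRNA libraries were thus all below the control siRNA libraries for the H2A gene and all above them for its H2B neighbour. Their log2 ratio was 1.15, 1.28 and 1.19 with KMT9a siRNA, against 1.85, 1.91 and 1.96 with control siRNA. By library totals alone HIST1H2BC no longer passed, whereas the difference in the ratio, -0.70 ± 0.05 (SE), does not rest on the scaling. The promoters of both genes are printed to show the DNA they share. The windows run from 250 bases before to 50 bases after each start (RefSeq, GRCh38.p14), overlap by 255 bases, and are read from opposite strands. Capitals mark the TATA box letters TATAAA, the CCAAT box and the octamer ATTTGCAT, each on either strand. The only TATAAA match in the HIST1H2BC window begins at -220 from its start. Its bases are those marked at -31 of HIST1H2AC, read from the other strand.
HIST1H2AC, current symbol H2AC6, chr6:26123922-26124221, plus strand: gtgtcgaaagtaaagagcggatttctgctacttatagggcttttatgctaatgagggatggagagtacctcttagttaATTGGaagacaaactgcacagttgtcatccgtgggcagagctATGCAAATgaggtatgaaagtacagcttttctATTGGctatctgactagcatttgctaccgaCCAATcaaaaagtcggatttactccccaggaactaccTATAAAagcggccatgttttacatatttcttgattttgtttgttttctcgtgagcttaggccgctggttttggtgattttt
HIST1H2BC, current symbol H2BC4, chr6:26123877-26124176, minus strand: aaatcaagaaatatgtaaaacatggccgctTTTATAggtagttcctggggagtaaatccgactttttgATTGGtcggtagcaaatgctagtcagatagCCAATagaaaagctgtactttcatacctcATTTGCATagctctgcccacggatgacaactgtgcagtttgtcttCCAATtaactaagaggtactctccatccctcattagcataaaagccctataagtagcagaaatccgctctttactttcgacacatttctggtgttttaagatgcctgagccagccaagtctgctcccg

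In the other 6 pairs with a lower ratio, the difference of the log2 ratio was -1.23 ± 0.22 for HIST1H2AK and HIST1H2BN, -1.08 ± 0.35 for HIST1H2AE and HIST1H2BG, and -1.01 ± 0.18 for HIST1H2AG and HIST1H2BJ (SE). It was -0.91 ± 0.18 for HIST3H2A and HIST3H2BB, -0.74 ± 0.27 for HIST1H2AI and HIST1H2BL, and -0.63 ± 0.19 for HIST1H2AM and HIST1H2BO (SE). In 5 of these 6 pairs the H2A gene passed the test as lower and the H2B gene did not pass, the exception being HIST1H2AM, at -0.47 with an adjusted p of 0.13 by limma. The ratio was higher with KMT9a siRNA for HIST1H2AD and HIST1H2BF, by 0.91 ± 0.36, and for HIST2H2AC and HIST2H2BE, by 0.98 ± 0.17 (SE). In the HIST1H2AD pair the H2A gene was the one that rose, and in the HIST2 pair HIST2H2AC rose and HIST2H2BE fell. The pair values are those of KMT9a siRNA minus control siRNA, on the log2 scale of CPM plus 0.05.

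**Figure D3:**
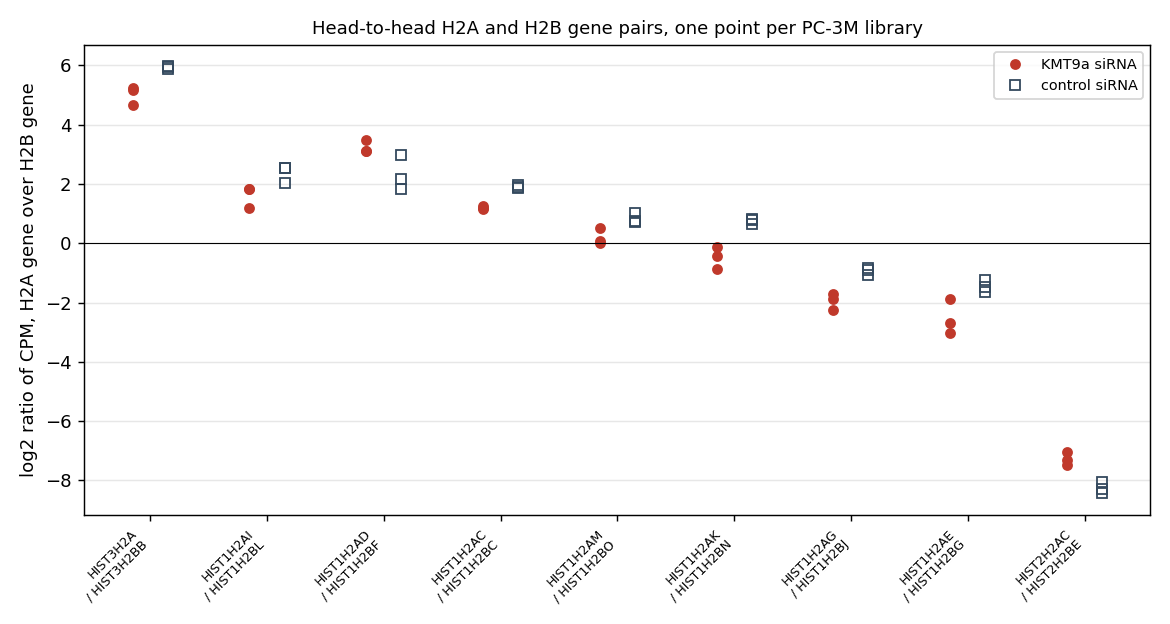
Log2 ratio of the H2A gene to its head-to-head H2B gene in each PC-3M library, for the 9 pairs with both genes tested; circles are KMT9a siRNA and squares control siRNA libraries. The ratio is lower with KMT9a siRNA in 7 pairs and higher in HIST1H2AD with HIST1H2BF and HIST2H2AC with HIST2H2BE, with no overlap of the groups in any of the 9.

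Of the 6 H2A genes that fell, HIST1H2AC is described above and the other 5 follow. HIST1H2AK (chr6:27805658-27806117, minus strand) had 2.29, 2.25 and 2.62 CPM in KMT9a siRNA libraries, against 6.49, 5.57 and 6.04 CPM in control siRNA libraries, a log2 fold change of -1.32 ± 0.13 (SE; adjusted p = 8.1e-07 by limma). HIST1H2AI (chr6:27775977-27776445, plus strand) had 1.46, 1.56 and 1.33 CPM with KMT9a siRNA, against 3.63, 3.13 and 3.20 CPM with control siRNA, a log2 fold change of -1.17 ± 0.15 (adjusted p = 1.26e-05). Both genes were at less than the control level in every KMT9a siRNA library. HIST1H2AG (chr6:27100817-27101314, plus strand) had 0.913, 1.11 and 0.549 CPM with KMT9a siRNA, against 2.11, 1.52 and 1.82 CPM with control siRNA, a log2 fold change of -1.09 ± 0.25 (adjusted p = 0.00184). HIST1H2AE (chr6:26217148-26217711, plus strand) had 2.34, 1.43 and 1.15 CPM with KMT9a siRNA, against 2.72, 3.29 and 2.90 CPM with control siRNA, a log2 fold change of -0.90 ± 0.23 (adjusted p = 0.00298). KMT9a siRNA replicate 1 came closest to the control siRNA libraries for HIST1H2AE, without reaching them. HIST3H2A (chr1:228645065-228645560, minus strand), the only H2A gene of its cluster, had 27.1, 31.2 and 23.8 CPM with KMT9a siRNA, against 38.9, 32.3 and 36.8 CPM with control siRNA, a log2 fold change of -0.40 ± 0.10 (adjusted p = 0.00271). KMT9a siRNA replicate 2 and control siRNA replicate 2 were the nearest libraries, and the groups did not overlap.

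The 4 H2A genes that rose stand for 3 loci. HIST1H2AD (chr6:26199012-26199471, minus strand) had 2.71, 3.68 and 3.09 CPM in KMT9a siRNA libraries, against 1.89, 1.59 and 2.07 CPM in control siRNA libraries, a log2 fold change of 0.75 ± 0.16 (SE; adjusted p = 0.00117 by limma). It overlaps HIST1H3D on the same strand, so the reads of the 2 genes cannot be told apart where they overlap. HIST2H2AC (chr1:149858525-149858961, plus strand) had 1.06, 0.913 and 1.31 CPM with KMT9a siRNA, against 0.690, 0.814 and 0.602 CPM with control siRNA, a log2 fold change of 0.61 ± 0.23 (adjusted p = 0.0295). The call was lost without any 1 of KMT9a siRNA replicates 1 and 3 and control siRNA replicates 1 and 3. The locus listed as both HIST2H2AA3 and HIST2H2AA4 had 0.888, 0.490 and 0.549 CPM with KMT9a siRNA, against 0.442, 0.352 and 0.283 CPM with control siRNA, a log2 fold change of 0.75 ± 0.31 (adjusted p = 0.0448). Its call was lost without any 1 of KMT9a siRNA replicates 1 and 3 and control siRNA replicates 2 and 3, and the groups were close, at 0.490 CPM in the lowest KMT9a siRNA library and 0.442 CPM in the highest control siRNA library. Summed over 16 H2A loci, the level was 78.6 ± 6.93 CPM with KMT9a siRNA and 105.5 ± 5.05 CPM with control siRNA (SD, n = 3 each).

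HIST1H2BD rose more than any other H2B gene tested. This H2B gene, at chr6:26158349-26171576 on the plus strand, had 56.4, 59.7 and 58.4 CPM in KMT9a siRNA libraries, against 26.2, 27.2 and 26.2 CPM in control siRNA libraries. The log2 fold change was 1.13 ± 0.06 (SE; adjusted p = 2.82e-09 by limma), and no KMT9a siRNA library came near the control siRNA libraries. The table holds 2 transcripts of the gene, a spliced one of 810 bases, which is the one used, and a single-exon one of 486 bases. The single-exon transcript had 1379, 1702 and 1291 read ends with KMT9a siRNA, against 901, 892 and 902 with control siRNA, a log2 fold change of 1.12 ± 0.07 (SE; adjusted p = 2.13e-08 by limma). The spliced transcript had 2288, 2679 and 2232 read ends with KMT9a siRNA, against 1480, 1470 and 1482 with control siRNA. Both transcripts thus rose by about the same factor, although they can share reads of the coding part. The promoter of HIST1H2BD is shown for the H2B gene with the largest increase; capitals mark TATAAA and CCAAT on either strand, and it holds no ATTTGCAT.
HIST1H2BD, current symbol H2BC5, chr6:26157871-26158170, plus strand: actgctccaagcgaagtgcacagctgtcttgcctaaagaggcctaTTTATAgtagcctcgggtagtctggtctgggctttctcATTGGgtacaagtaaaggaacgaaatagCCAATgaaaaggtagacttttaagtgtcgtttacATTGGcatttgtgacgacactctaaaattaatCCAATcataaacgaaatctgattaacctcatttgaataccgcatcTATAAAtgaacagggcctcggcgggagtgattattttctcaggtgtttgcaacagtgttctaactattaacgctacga

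Fitted changes of the other H2B genes were smaller. HIST2H2BE (chr1:149856010-149858232, minus strand), the gene with the most reads, had 176, 171 and 179.6 CPM in KMT9a siRNA libraries, against 232, 229 and 225 CPM in control siRNA libraries, a log2 fold change of -0.38 ± 0.05 (SE; adjusted p = 7.35e-06 by limma). HIST1H2BK (chr6:27106072-27114637, minus strand) had 151, 168 and 159 CPM with KMT9a siRNA, against 153, 152 and 148 CPM with control siRNA, and did not pass, at a log2 fold change of 0.07 ± 0.05 (adjusted p = 0.22). Its groups overlapped, and it spans HIST1H4I, which lies on the opposite strand. HIST1H2BG (chr6:26216428-26216872, minus strand) had 8.83, 9.42 and 9.63 CPM with KMT9a siRNA, against 8.67, 7.83 and 8.09 CPM with control siRNA, a log2 fold change of 0.18 ± 0.09 that did not pass (adjusted p = 0.0905), although the groups did not overlap. HIST2H2BF (chr1:149754245-149783928, minus strand) had 4.07, 4.61 and 3.87 CPM with KMT9a siRNA, against 3.17, 3.09 and 3.50 CPM with control siRNA, a log2 fold change of 0.36 ± 0.13 (adjusted p = 0.022). This call was lost by library totals alone and without KMT9a siRNA replicate 2, control siRNA replicate 1 or control siRNA replicate 2. A second transcript of HIST2H2BF had 11, 15 and 19 read ends with KMT9a siRNA, against 14, 16 and 15 with control siRNA. It did not pass, at a log2 fold change of 0.35 ± 0.34 (SE; adjusted p = 0.354 by limma). The span of HIST2H2BF overlaps FCGR1A on the opposite strand. With strand handling not given, reads of overlapping genes on opposite strands cannot be told apart. The remaining 8 tested H2B genes lay between -0.43 and 0.52 on the log2 scale and did not pass. Summed over 18 loci, H2B reached 434 ± 10.8 CPM with KMT9a siRNA and 442 ± 7.29 CPM with control siRNA (SD, n = 3 each), and the groups overlapped. By library totals alone the H2B groups did not overlap, and the log2 ratio was -0.20, against -0.03 with TMM.

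All 4 tested linker histone genes passed, 2 in each direction. HIST1H1C (chr6:26055968-26056699, minus strand), the linker gene with the most reads, had 23.9, 21.8 and 23.5 CPM in KMT9a siRNA libraries, against 27.1, 28.9 and 28.1 CPM in control siRNA libraries, a log2 fold change of -0.28 ± 0.07 (SE; adjusted p = 0.00245 by limma). HIST1H1D had 0.222, 0.223 and 0.157 CPM with KMT9a siRNA, against 0.495, 0.703 and 0.938 CPM with control siRNA, a log2 fold change of -1.61 ± 0.33 (adjusted p = 0.000665). Both were lower in every KMT9a siRNA library. HIST1H1D had 9, 10 and 6 read ends with KMT9a siRNA, against 28, 38 and 53 with control siRNA. It thus reached the minimum count of 10 in every library only in the control siRNA group, where it is higher. HIST1H1T, whose product is known as the testis linker histone, had 1.33, 1.47 and 1.07 CPM with KMT9a siRNA, against 0.301, 0.370 and 0.354 CPM with control siRNA. Its log2 fold change of 1.79 ± 0.24 (adjusted p = 2.08e-05) was the highest among the 40 tested genes, from a low level. HIST1H1E had 0.543, 1.27 and 0.654 CPM with KMT9a siRNA, against 0.372, 0.463 and 0.389 CPM with control siRNA, a log2 fold change of 0.86 ± 0.32 (adjusted p = 0.0281). KMT9a siRNA replicate 2 was high for this gene, and the call was lost without it and without control siRNA replicate 1 or 3. The H1 sum was 25.4 ± 0.60 CPM with KMT9a siRNA and 29.6 ± 1.17 CPM with control siRNA (SD, n = 3 each).

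Few H3 genes were measurable, and of those that passed 2 fell and 1 rose. The 1 that rose, HIST1H3D, shares a stretch with HIST1H2AD in which their reads cannot be told apart. HIST1H3H (chr6:27777842-27778314, plus strand), the H3 gene with the most reads, had 2.96, 3.54 and 3.01 CPM in KMT9a siRNA libraries, against 8.76, 7.63 and 8.09 CPM in control siRNA libraries. Its log2 fold change was -1.35 ± 0.12 (SE; adjusted p = 3.45e-07 by limma), and every KMT9a siRNA library was far below every control siRNA library. HIST1H3D (chr6:26197012-26199464, minus strand), which overlaps HIST1H2AD, had 5.35, 7.80 and 6.36 CPM with KMT9a siRNA, against 4.12, 3.46 and 3.91 CPM with control siRNA, a log2 fold change of 0.74 ± 0.14 (adjusted p = 0.000439). HIST1H3B had 0.0987, 0 and 0.183 CPM with KMT9a siRNA, against 0.389, 0.241 and 0.248 CPM with control siRNA, a log2 fold change of -1.58 ± 0.59 (adjusted p = 0.0282) on very few reads, lost without KMT9a siRNA replicate 2 or control siRNA replicate 1. HIST1H3B met the read filter through its control siRNA libraries alone. HIST1H3E and HIST2H3D did not pass, at -0.15 and 0.18 on the log2 scale. The H3 sum over 13 loci was 14.0 ± 1.49 CPM with KMT9a siRNA and 16.8 ± 0.59 CPM with control siRNA (SD, n = 3 each). The promoter of HIST1H3H is shown as that of the H3 gene with the most reads; capitals mark TATAAA and CCAAT on either strand.
HIST1H3H, current symbol H3C10, chr6:27809801-27810100, plus strand: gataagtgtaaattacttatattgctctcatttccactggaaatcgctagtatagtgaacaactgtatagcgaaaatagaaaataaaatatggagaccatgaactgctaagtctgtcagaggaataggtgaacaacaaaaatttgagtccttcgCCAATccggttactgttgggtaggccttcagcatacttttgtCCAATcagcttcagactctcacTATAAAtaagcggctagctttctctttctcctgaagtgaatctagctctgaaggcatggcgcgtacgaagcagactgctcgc

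Of 6 tested H4 genes, 1 rose and 1 fell. HIST1H4H (chr6:26285354-26285727, minus strand), by reads the main H4 gene, had 16.8, 14.9 and 16.6 CPM in KMT9a siRNA libraries, against 11.6, 9.96 and 10.6 CPM in control siRNA libraries, a log2 fold change of 0.59 ± 0.09 (SE; adjusted p = 5.95e-05 by limma). HIST4H4 (chr12:14923654-14924065, minus strand), the single gene of its cluster, had 1.41, 1.38 and 0.863 CPM with KMT9a siRNA, against 2.69, 2.15 and 2.57 CPM with control siRNA, a log2 fold change of -1.02 ± 0.21 (adjusted p = 0.000668). The groups did not overlap for either gene. HIST1H4D, at 0.68 ± 0.29, stood just outside the threshold with an adjusted p of 0.0504, and HIST1H4E, HIST1H4I and HIST1H4K overlapped between groups. The H4 sum over 14 loci was 21.7 ± 0.97 CPM with KMT9a siRNA and 17.4 ± 0.99 CPM with control siRNA (SD, n = 3 each), a log2 ratio of 0.31. By library totals alone the H4 groups overlapped and the log2 ratio was 0.14.

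By position, the HIST1 genes fall into 2 blocks on chromosome 6, separated by 814368 bases. In the block at 25726291 to 26285727, which holds 34 of the genes, 19 were tested, 7 were higher and 5 lower, with a median log2 fold change of 0.18. In the block at 27100095 to 27861669, which holds 21 genes, 12 were tested, 4 were lower and 0 higher, with a median of -0.26. Over all tested genes 37.2% were higher and 37.3% lower. The 4 that fell are HIST1H2AG, HIST1H2AI, HIST1H2AK and HIST1H3H. By limma at an unadjusted p under 0.05, by edgeR and by DESeq2 the counts in this block were also 0 higher and 4 lower. By library totals alone HIST1H2AM, in the same block, was called lower as well. All of these fits use the same libraries. In HIST2 on chromosome 1, from 149754245 to 149859466, 6 of 11 genes were tested, 4 were higher, 2 of them at 1 locus, and 1 was lower. None of these 4 passed by library totals alone, and only HIST2H2BF of the 4 passed by DESeq2 or without control siRNA replicate 3. The HIST1 blocks were read off the positions after the values were known, the difference between them was not tested, and neighbours can share a promoter or reads.

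**Figure D4:**
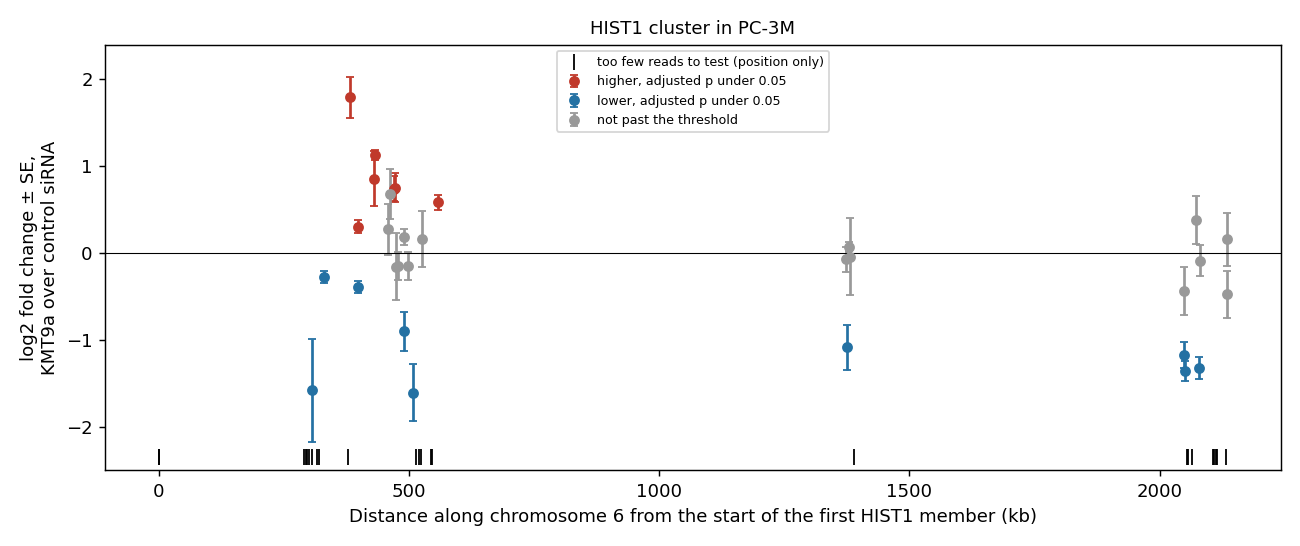
Log2 fold change with its standard error of the HIST1 genes in PC-3M, KMT9a siRNA over control siRNA, against distance along chromosome 6 in kilobases from the first HIST1 gene; ticks at the bottom mark genes with too few reads to test. Calls in both directions lie in the left block, while the 4 calls in the right block are all lower.

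Summed over all 67 loci, clustered histone transcripts were slightly lower in TMM-scaled CPM with KMT9a siRNA. The sum was 558, 589 and 572 CPM in KMT9a siRNA libraries, against 622, 606 and 605 CPM in control siRNA libraries, a log2 ratio of -0.09. No KMT9a siRNA library reached a control siRNA library. With TMM the sign rests on HIST2H2BE: without it the sums were 398 ± 18.4 CPM with KMT9a siRNA and 382 ± 6.84 CPM with control siRNA (SD, n = 3 each), a log2 ratio of 0.06. By library totals alone the sum averaged 540 per 1000000 read ends with KMT9a siRNA and 649 with control siRNA. The log2 ratio of all loci was then -0.26, and without HIST2H2BE it was -0.12, so that sign did not rest on this gene. These sums are descriptions of bulk RNA, in which fewer cells in S phase and less histone RNA per cell cannot be told apart.

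Genes for DNA replication mostly fell. Of 20 S phase markers, 18 were lower with KMT9a siRNA, 1 was higher and 1 did not pass, with a median log2 fold change of -1.72. RRM2, a ribonucleotide reductase subunit, averaged 6.67 ± 1.41 CPM with KMT9a siRNA and 95.1 ± 4.05 CPM with control siRNA (SD, n = 3 each; log2 fold change -3.84). The thymidine kinase TK1 was at -3.79, the helicase subunit MCM6 at -2.30, RRM1 at -1.80 and the flap endonuclease FEN1 at -1.64 on the log2 scale, all past the limma threshold. Beside this list the clustered histone genes had a median of 0.02, with 11 higher and 12 lower. The part of the cell cycle in their values was not tested.

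The genes that make and process histone messenger RNA were split. Of 27 listed symbols, ARS2 is an older name of SRRT, which is also listed, and the other 26 were tested, with 12 higher, 10 lower and 4 not past the threshold and a median log2 fold change of 0.09. E2F1, a transcription factor of S phase entry, averaged 1.67 ± 0.21 CPM with KMT9a siRNA and 18.3 ± 1.23 CPM with control siRNA (SD, n = 3 each; log2 fold change -3.43). LSM10, a subunit of the U7 particle that helps to cut histone messenger RNA, was at -1.69, and the phosphatase CDC25A, an activator of CDK2, at -1.23. ZNF473, a zinc finger protein of the same processing complex, rose by 0.91, and HINFP, which binds H4 gene promoters, by 0.89 on the log2 scale. NPAT averaged 36.7 ± 2.21 CPM with KMT9a siRNA and 25.2 ± 0.41 CPM with control siRNA, a log2 fold change of 0.54 (limma, adjusted p = 9.58e-06). SLBP did not pass, at 66.4 ± 5.03 CPM with KMT9a siRNA and 60.5 ± 1.83 CPM with control siRNA, a log2 fold change of 0.13 (limma, adjusted p = 0.0811).

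Histone genes outside the clusters, which supply histone variants, also went both ways. Of 17 listed, 12 were tested, with 6 higher, 5 lower and 1 not past the threshold. H1F0, the replacement linker histone, rose to 782 ± 22.3 CPM with KMT9a siRNA, against 233 ± 1.82 CPM with control siRNA (SD, n = 3 each; log2 fold change 1.75; limma, adjusted p = 6.76e-12). H1FX, another linker histone, was at 1.20 and H3F3B, a replacement H3 gene, at 0.53. CENPA, the centromeric H3, was at -2.24 and H2AFX, the H2A variant known from DNA damage signalling, at -1.18. Histone chaperones and carriers leaned lower: of 29 tested, 16 were lower, 6 higher and 7 not past the threshold, with a median of -0.32. HJURP, the chaperone of CENPA, was at -2.42, ASF1B at -2.40, the chromatin assembly subunit CHAF1A at -1.24 and NAP1L4 at -0.96, while UBN1, a subunit of the HIRA complex, was at 1.03. The shares called were 84.6% of the processing list, 91.7% of the histone genes outside the clusters, 75.9% of the chaperones and 95% of the S phase markers, beside 74.5% of all tested genes.

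Promoter motifs were counted by histone type and by the direction of the calls. All 70 genes matched RefSeq by accession and 65 had a promoter in the table, each 300 bases long. On either strand, TATAAA was in 43 of 65 (66.2%), against 11.5% of all 35116 promoters, and CCAAT in 55 (84.6%), against 34.6%. CCAAT was in every H1, H2A, H2B and H3 promoter and in 3 of 13 H4 promoters. The octamer ATTTGCAT, the letters that the factor POU2F1 is known to bind in H2B promoters, was in 14 of 18 H2B and 11 of 16 H2A promoters, in 1 H3 promoter and in no H1 or H4 promoter, 40% in all, against 1.77%. An E2F motif, TTTCCCGC, TTTGGCGC, TTTCGCGC or TTTGCCGC, was in 16 of 65 (24.6%), against 3.31%. Head-to-head partners share most of their window, so their matches are largely the same bases. The 1 H3 promoter with the octamer is that of HIST1H3D, whose motif positions are those of HIST1H2AD. Among genes that were higher, TATAAA was in 6 of 11, CCAAT in 10, the octamer in 5 and an E2F motif in 1. Among genes that were lower, these were in 9, 11, 4 and 2 of 12. The match of letters is a description and no site of binding. POU2F1 itself, chosen for the octamer after its value was seen, averaged 42.9 ± 2.76 CPM with KMT9a siRNA and 41.4 ± 1.30 CPM with control siRNA (limma, adjusted p = 0.508).

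In MCF10A only 3 of the 70 genes had a read and 1 was tested. HIST3H2A had 15, 42 and 15 read ends in KMT9a siRNA libraries, against 19, 21 and 31 in control siRNA libraries, a log2 fold change of 0.17 (limma, adjusted p = 0.873), where 5 of 1049 tested genes, 0.477%, passed. HIST1H2BK had 2 read ends and HIST1H1C 1, each in KMT9a siRNA replicate 2 alone, and the other 67 genes had none. At their share of reads in PC-3M control siRNA libraries, HIST2H2BE would have given 22.0 to 31.0 read pairs in a library of this depth, HIST1H2BK 14.5 to 20.5 and HIST3H2A 3.46 to 4.88. HIST2H2BE was thus at 0 where this many pairs would have been counted, while HIST3H2A was above its share. Among genes listed as basal mammary markers, KRT5 and LAMB3 were at 0 read ends in every MCF10A library. KRT14 had 78 in KMT9a siRNA replicate 2 and at most 1 in the others, TP63 had 0 to 4, and KRT17 had 84 to 430. Absence of a transcript therefore cannot be read from a 0 in these libraries. A count of 0 allows a level of up to 23.5 to 33.1 CPM in these libraries, so for most of the genes no level or difference was detectable in MCF10A at this depth. The tables of the 2 lines were scaled separately, and whether the lines differ in these genes was not tested.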

How the data were processed

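Messenger RNA levels were compared between 3 KMT9a siRNA and 3 control siRNA libraries in each of PC-3M and MCF10A, with groups and numbers taken from the titles. STAR, HOMER, edgeR and hg19 are named, per the submitters' processing notes, while versions, strand handling and RNA selection are not given in the sources used here. The authors deposited, per the file headers, a scaled signal for 38763 transcript rows per table, beside the log2 fold change, the p-value and an adjusted value of their own test. Every signal value above 0 was a whole multiple of a step of its library, in 100% of values within 0.1 step, and read ends were recovered as these multiples. The design had allowed for raw counts, and because the values are scaled the test was limma.

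Limma 3.58.1 in R 4.3.3 was fitted with a trended variance to log2 values, taken after TMM scaling and addition of 1, over the genes passing the edgeR 4.0.16 filter on recovered read ends (minimum count 10, minimum total 15). P-values were Benjamini-Hochberg adjusted over all tested genes of a table, at a threshold of 0.05. The added 1 makes fold changes of low genes too small. CPM are read ends per 1000000 of the TMM-scaled total over tested genes. Levels are compared between genes per kilobase of transcript only. The steps were tested on simulated counts.

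The histone genes and the gene lists beside them were chosen with earlier results of these data known, and counts over them are descriptions. Given in full were called genes with a mean of at least 20 read pairs and the 10 genes with the highest level per kilobase; other called genes follow with their values. From the other lists NPAT, SLBP and up to 5 genes of smallest p were named. Of the pseudogene rows in the clusters, 3 were left out. Alternatives were scaling, filter, pseudocounts of 0.25 and 5, all transcript rows, edgeR and DESeq2 1.42.0 tests on recovered reads, the replicate number as a block and each library left out. The edgeR fit with the block and the summed level by library totals were added after seeing the data. Promoters are those of RefSeq on GRCh38.p14, matched by accession, and no coordinate was converted between builds.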

Additional observations from a re-analysis of the deposited data

How the results depend on the processing

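There were 16 alternatives, and called genes with a mean under 5 CPM were tested in 15 of them. Of the 23 clustered histone genes called in PC-3M, 16 stayed past the threshold in every alternative that tested them. Another 7 were lost in at least 1: HIST1H1E, HIST1H2BC, HIST1H3B, HIST2H2AA3, HIST2H2AA4, HIST2H2AC and HIST2H2BF. None of the 23 changed sign in these alternatives. Without a filter 65 genes were tested, with 8 higher and 14 lower, and a mean of at least 5 CPM left 11 tested genes, with 4 higher and 5 lower. Library totals alone gave 5 higher and 13 lower; the cause beyond the shift of all genes was not tested. DESeq2 gave 8 higher and 12 lower, edgeR 12 and 12. Leaving out 1 library gave 7 to 9 higher and 11 to 12 lower, the 7 without control siRNA replicate 3. The summed level of all loci, -0.09 on the log2 scale, was 0.056 without HIST2H2BE, which is also the sum over transcripts under 1 kilobase, and -0.26 by library totals alone. Calls in the gene lists outside the clustered genes ranged from 65 to 80, against 73.

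Replicate numbers gave no sign of pairing: the deviations of same-numbered libraries correlated at -0.0807, -0.146 and -0.039. Those of differently numbered libraries correlated at -0.0684 to 0.145. Deviations from the mean of 3 libraries depend on each other, so this check cannot exclude pairing. With the replicate number as a block the counts were 11 higher and 12 lower, as without it, and edgeR with the block gave 10 higher and 12 lower. In PC-3M 30 genes had too few reads for a test. In MCF10A 1 gene was tested. HIST2H2BE had 0 read ends and HIST1H2BK 2, where 22.0 to 31.0 and 14.5 to 20.5 read pairs a library were expected at their PC-3M control share. The listed basal markers KRT5 and LAMB3 also had 0 read ends there, so these zeros do not show absence.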
